A study of Mus musculus with 37 samples.

Results

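The MHC class I presentation genes described here are 10 named genes of 1 pathway, listed by name with no threshold on a value, out of 24016 genes in the expression table. They are the light chain gene B2m, the classical heavy chain genes H2-K1 and H2-D1, the nonclassical heavy chain genes H2-T23 and H2-M3, the peptide transporter genes Tap1 and Tap2, the loading factor gene Tapbp, the peptide-trimming gene Erap1 and the transactivator gene Nlrc5. All 10 were found in the table and all 10 were among the 10499 genes analysed, which had at least 100 reads after scaling in at least 1 WT library. The genes were measured by polyA RNA-seq in bone marrow-derived macrophages (BMDMs) at 0, 6, 24 and 48 h after Kdo2 lipid A (KLA), the lipid A part of bacterial lipopolysaccharide, which activates the receptor TLR4. At 48 h, 5 of the 10 genes were at least 1.5-fold higher than at 0 h in WT BMDMs, against 13.5% of all genes analysed, and 6 of 10 in Arntl-/- BMDMs, against 15.2%, led in both by Tapbp and H2-T23. With a correction for how each library's values depend on expression level, the counts were 3 and 2, against 13.3% and 14.1%. No member differed 1.5-fold between the genotypes at any time, where 4.69% (6 h) to 11.7% (48 h) of all genes did. With 10 genes, a count of 0 is near those shares.

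MHC class I molecules show fragments of the proteins made inside a cell to CD8 T cells and NK cells. Proteasomes cut proteins into peptides, the TAP transporter carries the peptides into the endoplasmic reticulum, ERAP1 trims them, and tapasin holds empty class I molecules at the transporter until a peptide is bound. Nearly all nucleated cells make class I molecules, and in macrophages interferons and TLR signals are known to raise the pathway, in part through NLRC5 and interferon regulatory factors. Arntl encodes Bmal1, the transcription factor of the circadian clock that binds E-boxes as a partner of CLOCK.

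The cells came from male mice of 6 to 9 weeks. The deletion strain, Arntl-/-, is on a C57BL/6 background, and the part of the gene that is deleted was not given in the sources used here. The sources describe the WT animals both as littermates and as C57BL/6J mice from a breeder. Bone marrow cells of both genotypes had been grown with M-CSF for 6 days, and the cells at 0 h had received no KLA. Each of the 2 genotypes had 1 library at each of the 4 times, 8 libraries in all, and the sources used here do not say how many mice gave the cells of a library. No difference below therefore has a replicate check, and no test between conditions was made. The libraries held between 8587560 and 27036783 reads on genes. The shallowest was Arntl-/- at 48 h and the deepest WT at 6 h. Values are FPKM divided by a size factor per library, called scaled FPKM here, so that levels can be compared both between libraries and, because FPKM is per exon length, between genes. The intervals in brackets are 95% intervals for the counting of reads, taken conservatively with 6 reads as 1 independent molecule, and they do not cover variation between cultures or mice. Arntl itself had a scaled FPKM of 32.3 to 38.7 in the WT libraries and of 11.3 to 20.2 in the Arntl-/- libraries, so no Arntl-/- library reached the lowest WT value, though each still held 75 to 136 reads on the gene. In bulk RNA, fewer cells of a type and less RNA per cell cannot be told apart.

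The promoters of 8 of the 10 genes were listed in the RefSeq promoter table (build GRCm38.p6), in windows of 250 bases before to 50 bases after the start site. Tap2 and Nlrc5 had no entry. The windows were searched on both strands for letters known from class I promoters and from clock genes. GAAA, any 2 bases, GAAA is the core of the interferon-stimulated response element, and GGG, any 5 bases, CC is a loose NF-kB site. ATTGG is the Y box, TGACG the core of the class I X2 box, which resembles a CRE, CACGTG the E-box and AGGTCA the core letters bound by the REV-ERB and ROR receptors. ATTGG and TGACG belong to the module on which the class I enhanceosome forms. The bases before the start site are printed for the genes with the highest levels (B2m, H2-K1, H2-D1), for H2-T23, which was among the genes with the largest change over time, and for Erap1, the only one of the 8 with an E-box. Capitals mark these letters, on either strand, where the whole match lies before the start site.
B2m (chr2:122147437-122147686, plus strand): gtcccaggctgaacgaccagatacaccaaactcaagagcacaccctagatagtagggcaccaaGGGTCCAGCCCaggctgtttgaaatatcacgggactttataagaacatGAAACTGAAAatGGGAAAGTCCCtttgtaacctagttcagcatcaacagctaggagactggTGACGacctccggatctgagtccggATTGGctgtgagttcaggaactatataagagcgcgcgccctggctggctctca
H2-K1 (chr17:34000348-34000597, minus strand): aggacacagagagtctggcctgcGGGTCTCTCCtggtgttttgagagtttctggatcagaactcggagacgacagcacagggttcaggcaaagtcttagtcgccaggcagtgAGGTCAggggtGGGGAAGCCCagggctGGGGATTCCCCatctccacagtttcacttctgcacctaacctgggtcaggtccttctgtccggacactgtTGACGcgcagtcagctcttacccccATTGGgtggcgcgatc
H2-D1 (chr17:35262844-35263093, plus strand): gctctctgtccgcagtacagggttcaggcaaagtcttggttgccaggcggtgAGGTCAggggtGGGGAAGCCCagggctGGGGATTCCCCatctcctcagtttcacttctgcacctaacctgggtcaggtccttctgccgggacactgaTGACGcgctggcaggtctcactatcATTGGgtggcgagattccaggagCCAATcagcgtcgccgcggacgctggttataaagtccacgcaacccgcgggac
H2-T23 (chr17:36032702-36032951, minus strand): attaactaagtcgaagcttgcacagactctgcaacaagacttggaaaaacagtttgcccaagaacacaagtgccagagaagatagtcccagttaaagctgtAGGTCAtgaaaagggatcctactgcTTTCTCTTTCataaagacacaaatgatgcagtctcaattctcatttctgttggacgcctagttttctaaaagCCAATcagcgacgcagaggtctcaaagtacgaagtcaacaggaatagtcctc
Erap1 (chr13:74639603-74639852, plus strand): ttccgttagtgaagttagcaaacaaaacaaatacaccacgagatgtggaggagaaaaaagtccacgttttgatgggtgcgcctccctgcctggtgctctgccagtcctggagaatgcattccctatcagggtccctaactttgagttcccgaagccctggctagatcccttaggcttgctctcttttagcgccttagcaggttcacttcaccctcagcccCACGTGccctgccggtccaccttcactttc
The H2-K1 and H2-D1 windows were 88.3% identical over 239 aligned bases, and the same order of AGGTCA, NF-kB letters, TGACG and ATTGG can be read in both. ATTGG was in 7 of the 8 windows, against 37.9% of the windows of 27025 genes, and only Erap1 lacked it. TGACG was in 5 of 8 (B2m, H2-K1, H2-D1, H2-M3 and Tap1), against 21.0% of all. The exact letters GAAA, any 2 bases, GAAA were in B2m, H2-T23 and Erap1, 3 of 8 against 3.49% of all. In Erap1 the match crosses the start site, from base -4 to base 6. Interferon elements spelled otherwise were not searched for, so their absence from the other windows is not shown. The E-box was in Erap1 only, 30 to 25 bases before the start site, and 7.24% of all windows held one. AGGTCA was in H2-K1, H2-D1 and H2-T23, against 16.0% of all. The NF-kB letters were in 5 of 8, near the 50.4% of all windows that held them. These are matches of letters and not measured binding sites.

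The 10 genes spanned a wide range of levels. The mean scaled FPKM over the 8 libraries was 4582 for B2m (chr2:121973423-121978818 of mm9), 4528 for H2-D1 (chr17:35400039-35404442) and 3412 for H2-K1 (chr17:34132957-34137278), which were at ranks 14, 15 and 20 of all 24016 genes. It was 1206 for H2-T23 (chr17:36166922-36169646) and 949.8 for Tapbp (chr17:34056423-34066235). The transporter genes followed closely together, at 379 for Tap1 (chr17:34324501-34334170) and 365 for Tap2 (chr17:34341424-34353266), beside 324 for H2-M3 (chr17:37407179-37411430). Erap1 (chr13:74777320-74829323) had a mean of 162 and Nlrc5 (chr8:96996663-97051172) one of 134, the lowest of the 10. The order was firm where the levels stepped down: H2-K1 was above H2-T23, Tapbp above Tap1, and H2-M3 above Erap1, in 8 of 8 libraries and with ranges that did not overlap. Between other neighbours the ranges over libraries overlapped. Within each library, H2-D1 was nevertheless above H2-K1, and H2-T23 above Tapbp, in 8 of 8. B2m was above H2-D1 in 6 of 8 libraries, Tap1 above Tap2 in 4 of 8, Tap2 above H2-M3 in 4 of 8 and Erap1 above Nlrc5 in 6 of 8, so these pairs had no fixed order. The members were covered by 484 reads (H2-M3 in Arntl-/- BMDMs at 48 h) to 25140 reads (H2-D1 in WT BMDMs at 6 h).

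The heavy chain genes are alike in sequence, which bears on how their reads were assigned. Coding sequences of the mm9 annotation were 91.5% identical between H2-K1 and H2-D1, 83.2% between H2-K1 and H2-T23, and 73.0 to 73.2% between H2-M3 and the other heavy chains. Of all windows of 50 bases along the longest transcript, 8.87% in H2-K1, 14.3% in H2-D1 and 14.8% in H2-T23 were found unchanged in a transcript of another gene. That share was 0.576% in H2-M3 and under 1% in Tap1, Tap2 and Tapbp, and it was 0 in B2m and Erap1. H2-L overlaps H2-D1 in the table by 3608 bases on the same strand, and its values ran with those of H2-D1, from 3585 to 8859. Reads were counted on both strands, and the rows Patl2 (across B2m) and A930015D03Rik (across H2-T23) lie on the strand opposite to the member. Values of H2-D1, and to a lesser degree of H2-K1 and H2-T23, are therefore uncertain in how reads were split.

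B2m encodes beta-2-microglobulin, the light chain common to all class I molecules. Its scaled FPKM was 3997, 2994, 4771 and 6997 in WT BMDMs at 0, 6, 24 and 48 h, and 3426, 4051, 4278 and 6138 in Arntl-/- BMDMs. The lowest of the 8 values was WT at 6 h, and both 48 h libraries were above all others. H2-D1 encodes one of the classical heavy chains that present peptides to CD8 T cells. It was at 4263, 2981, 4746 and 7257 in WT BMDMs and at 3213, 3786, 3847 and 6135 in Arntl-/- BMDMs. H2-K1, the other classical heavy chain gene, was at 3228, 2416, 3821 and 4617 in WT BMDMs and at 2596, 3005, 3194 and 4423 in Arntl-/- BMDMs. The 3 genes had the same shape: a dip at 6 h in WT BMDMs, no dip in Arntl-/- BMDMs, and their highest value at 48 h in both. At 48 h against 0 h, B2m was 1.75-fold higher in WT BMDMs and 1.79-fold in Arntl-/- BMDMs, and H2-D1 1.70-fold and 1.91-fold. H2-K1 was 1.43-fold higher in WT BMDMs (log2 0.52, 0.42 to 0.61) and 1.70-fold in Arntl-/- BMDMs (0.77, 0.67 to 0.86), on either side of the 1.5-fold line.

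**Figure D1:**
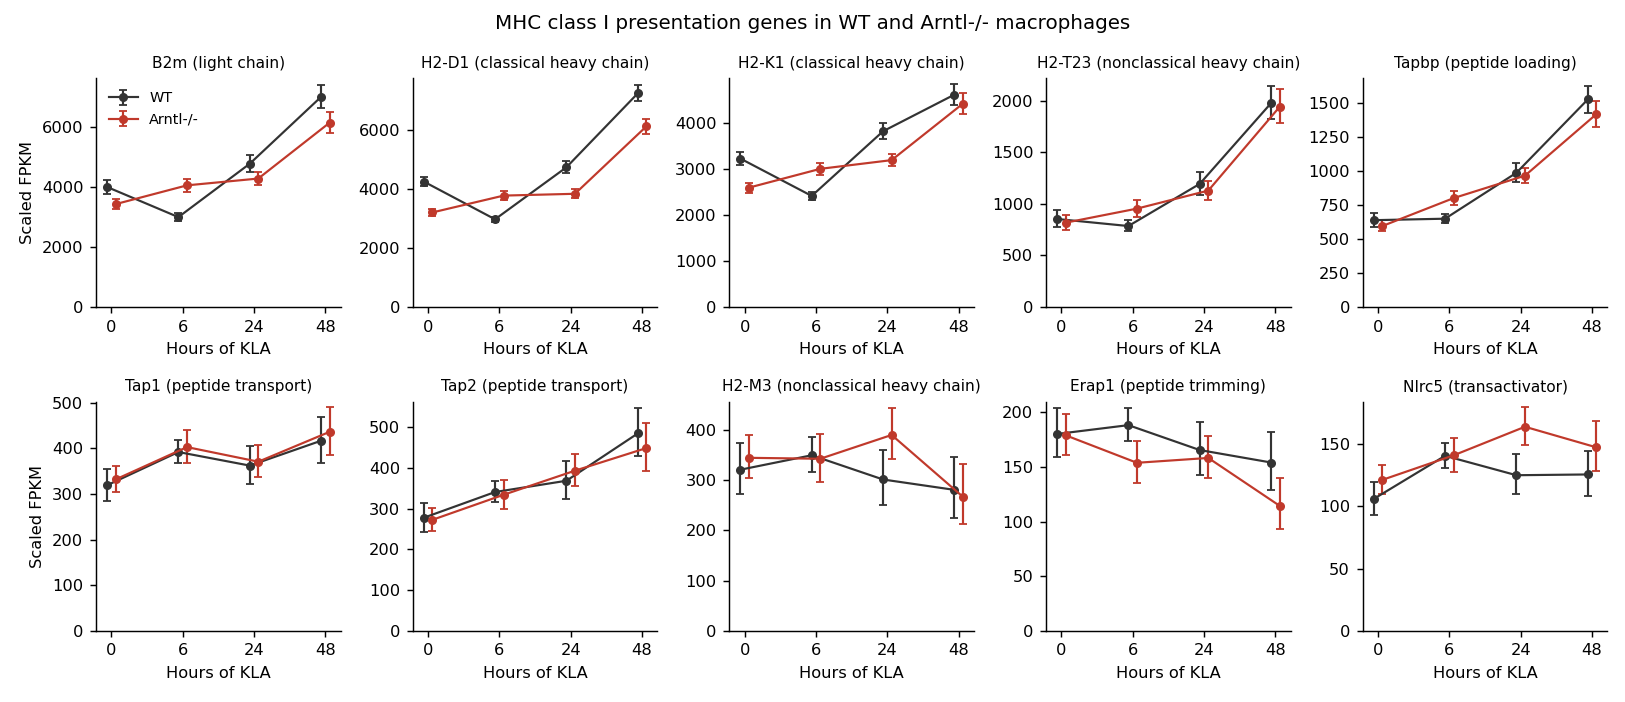
Scaled FPKM (linear axes from 0) of the 10 genes against hours of KLA, drawn at equal steps, in WT (black) and Arntl-/- (red) BMDMs. Each point is 1 library and the bars are counting intervals. B2m, H2-D1 and H2-K1 are lowest in WT at 6 h, Tapbp and H2-T23 climb to 48 h in both genotypes, and Erap1 and H2-M3 do not.

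H2-T23 encodes Qa-1, a nonclassical heavy chain that presents leader peptides of other class I chains to the NK receptor CD94/NKG2A. It was at 854, 785, 1194 and 1976 in WT BMDMs and at 818, 954, 1129 and 1940 in Arntl-/- BMDMs. Its 48 h values were 2.31-fold (log2 1.21) and 2.37-fold (log2 1.25) those at 0 h. The step from 24 to 48 h was the largest in both genotypes, 0.73 in WT BMDMs and 0.78 in Arntl-/- BMDMs. H2-M3 encodes a chain specialized for N-formylated peptides of bacteria and mitochondria. It was at 320, 349, 301 and 280.2 in WT BMDMs and at 344, 342, 389 and 266 in Arntl-/- BMDMs, with no 1.5-fold change from 0 h in either. Its highest and lowest values were both in Arntl-/- BMDMs, at 24 h and at 48 h, and the step between them was -0.55 (-0.93 to -0.18).

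Tapbp encodes tapasin, which links class I molecules to the transporter. It was at 640.2, 651, 989 and 1529 in WT BMDMs and at 597, 803, 968 and 1421 in Arntl-/- BMDMs. Tapbp was the only member past 1.5-fold at 24 h, at 1.55-fold in WT BMDMs (log2 0.63, 0.47 to 0.78) and 1.62-fold in Arntl-/- BMDMs (0.70, 0.57 to 0.83). It had the largest change of the 10 at 48 h, 2.39-fold in WT BMDMs and 2.38-fold in Arntl-/- BMDMs. Tap1 and Tap2 encode the chains that pair to form the peptide transporter. Tap1 was at 319, 392.2, 362 and 417 in WT BMDMs and at 332, 403, 371 and 437 in Arntl-/- BMDMs, a 1.31-fold difference between 48 and 0 h in both. Tap2 was at 278, 341, 369 and 485 in WT BMDMs and at 273, 334, 393 and 449 in Arntl-/- BMDMs, 1.75-fold and 1.65-fold higher at 48 h. Tap1 stepped up by 6 h (0.30 in WT BMDMs and 0.28 in Arntl-/- BMDMs), was slightly lower at 24 h than at 6 h (steps of -0.11 and -0.12) and stepped up again to 48 h (0.20 and 0.23). Tap2 was higher at each later time in both genotypes. The ratio of Tap1 to Tap2 was 1.15, 1.15, 0.983 and 0.860 over time in WT BMDMs and 1.22, 1.21, 0.943 and 0.972 in Arntl-/- BMDMs, lower at 24 and 48 h than at 0 and 6 h in both.

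Erap1 encodes the aminopeptidase that trims peptides in the endoplasmic reticulum. It was at 180.2, 188, 166 and 154 in WT BMDMs and at 179, 154, 158 and 114 in Arntl-/- BMDMs. The lowest value, in Arntl-/- BMDMs at 48 h, rested on 587 reads and was 0.64-fold the value at 0 h (log2 -0.65, -0.98 to -0.32). That was the only member past 1.5-fold downwards in any comparison, where 17.3% of all genes were. It did not reach the line with upper-quartile scaling (-0.55) or with the correction for expression level (-0.57). Nlrc5 encodes the transactivator that drives class I genes. It was at 106, 141, 125 and 126 in WT BMDMs and at 121, 141, 164 and 147 in Arntl-/- BMDMs. Nlrc5 was highest at 6 h in WT BMDMs and at 24 h in Arntl-/- BMDMs, with log2 values of 0.41 (0.20 to 0.62) and 0.43 (0.24 to 0.63) against 0 h, and did not reach 1.5-fold at any time.

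Over the 10 genes, the changes from 0 h were counted against the share of all genes analysed that passed the same line. At 6 h, 0 of 10 were at least 1.5-fold higher in WT BMDMs, where 5.39% of all genes were, and 0 of 10 in Arntl-/- BMDMs, where 3.1% were. At 24 h, 1 of 10 was higher in each genotype, Tapbp, against 8.7% of all genes in WT BMDMs and 7.79% in Arntl-/- BMDMs. The counts at 6 and 24 h are near these shares. At 48 h, 5 of 10 were higher in WT BMDMs (B2m, H2-D1, H2-T23, Tap2 and Tapbp), against 13.5% of all genes, and 6 of 10 in Arntl-/- BMDMs (the same 5 and H2-K1), against 15.2%. With the correction for expression level, described with the change at 6 h, 3 remained in WT BMDMs (H2-T23, Tap2 and Tapbp) and 2 in Arntl-/- BMDMs (H2-T23 and Tapbp), against 13.3% and 14.1% of all genes under the same correction. At 24 h it left 0 in either genotype, against 9.35% and 8.25%, with Tapbp at 0.53 and 0.55. The median log2 change of the 10 at 48 h was 0.64 in WT BMDMs and 0.74 in Arntl-/- BMDMs, while the median of all genes analysed was 0.00 and -0.01. With the correction the medians of the 10 fell to 0.19 and 0.10. The comparisons within a genotype share its 0 h library.

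**Figure D2:**
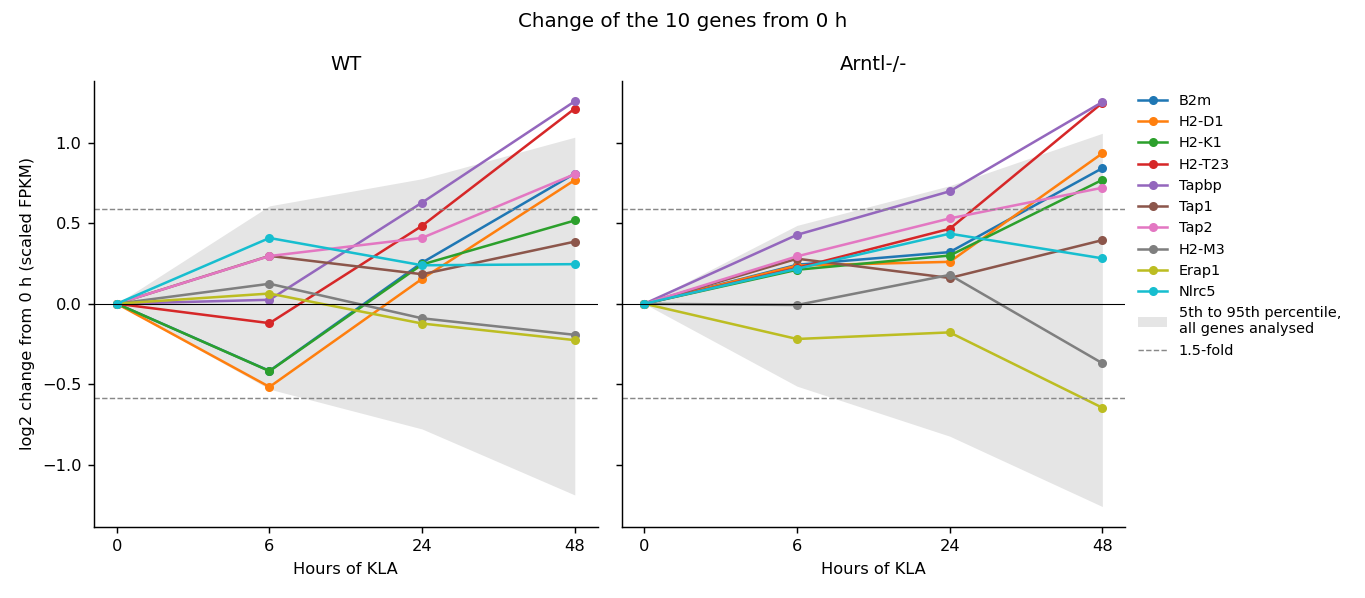
Log2 change of scaled FPKM from 0 h for each of the 10 genes (lines) in WT and Arntl-/- BMDMs. The grey band holds the 5th to 95th percentile of all genes analysed and the dashed lines are 1.5-fold. Tapbp and H2-T23 leave the band at 48 h in both genotypes, at 1.21 to 1.26.

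To see whether Arntl deletion was accompanied by a difference in class I genes, the genotypes were compared at each time. At 0 h, 0 of 10 members differed by at least 1.5-fold in either direction, against 5.21% of all genes. At 6 h it was 0 of 10 against 4.69%, at 24 h 0 of 10 against 6.75%, and at 48 h 0 of 10 against 11.7%. With only 10 genes, these counts are near the shares of all genes. The medians of the 10 log2 ratios were -0.04, 0.16, -0.05 and -0.09. With the correction for expression level they were 0.11, -0.15, 0.10 and -0.06, with the sign turned at 0, 6 and 24 h. Smaller differences beyond the counting intervals were present in the genes with the most reads. H2-D1 was lower in Arntl-/- BMDMs at 0 h (-0.41, -0.49 to -0.33), 24 h (-0.30, -0.38 to -0.22) and 48 h (-0.24, -0.32 to -0.16), and higher at 6 h (0.34, 0.27 to 0.41). B2m had the same signs, at -0.22, -0.16 and -0.19 and, at 6 h, 0.44 (0.34 to 0.53). H2-K1 was at -0.31, 0.31, -0.26 and -0.06, the last with an interval that held 0. Without the correction for expression level, 6 h was thus the only time at which the 3 genes were higher in Arntl-/- BMDMs. With it the signs at 6 h turned (B2m -0.21, H2-D1 -0.30, H2-K1 -0.29), and the corrected ratios at 0, 24 and 48 h were 0.18, 0.17 and -0.07 for B2m, -0.01, 0.02 and -0.13 for H2-D1, and 0.05, 0.04 and 0.04 for H2-K1. In the Arntl-/- library at 0 h the 10% of genes with the highest expression lay 0.20 below their mean over the 8 libraries (median, log2).

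The other members differed less or in other ways. Nlrc5 was higher in Arntl-/- BMDMs at 24 h (0.39, 0.16 to 0.62), with 0.19 at 0 h, 0.00 at 6 h and 0.23 at 48 h, where the intervals held 0. H2-M3 was higher at 24 h (0.37, 0.05 to 0.70). Erap1 was lower at 6 h (-0.29, -0.51 to -0.08) and 48 h (-0.43, -0.82 to -0.04). Tapbp and H2-T23 were higher at 6 h, by 0.30 (0.18 to 0.42) and 0.28 (0.12 to 0.44), with intervals that held 0 at 0, 24 and 48 h. Corrected for expression level, the values at 6 h were -0.05 and -0.12. Tap1 stayed between 0.03 and 0.07 and Tap2 between -0.11 and 0.09 at the 4 times, with intervals that held 0 throughout. At these depths a genotype difference larger than 0.37 in size for Tap2, or 0.31 for Tap1, lay outside the counting interval at every time, but a difference between mice or cultures was not measured.

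**Figure D3:**
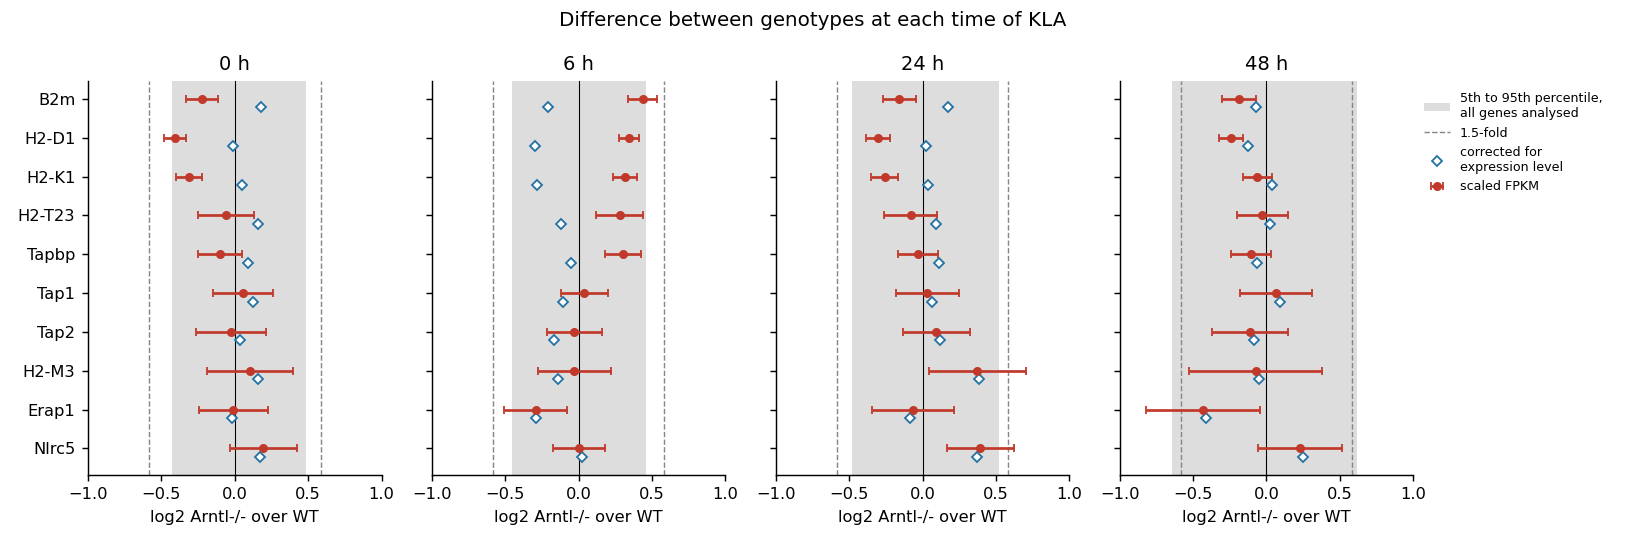
Log2 ratio of Arntl-/- over WT scaled FPKM at each time (red, with counting intervals), beside the ratio after correction for expression level (blue diamonds). The grey band holds the 5th to 95th percentile of all genes analysed and the dashed lines are 1.5-fold. At 6 h B2m, H2-D1 and H2-K1 are at 0.31 to 0.44 without the correction and at -0.30 to -0.21 with it.

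The values of the 3 most abundant members moved with a feature of whole libraries. In the deepest library, that of WT BMDMs at 6 h, the 10% of genes with the highest expression lay 0.35 below their mean over the 8 libraries (median, log2). The same genes lay 0.30 above it in WT BMDMs at 48 h and 0.25 above it in Arntl-/- BMDMs at 48 h, the shallowest libraries. The 51 other genes with a mean log2 level no more than 0.5 below that of H2-K1 were lower at 6 than at 0 h in WT BMDMs in 51 of 51 cases, with a median of -0.57, beside -0.42 for B2m, -0.42 for H2-K1 and -0.52 for H2-D1. In Arntl-/- BMDMs 48 of the 51 were higher, with a median of 0.22, beside 0.24, 0.21 and 0.24. The dip in WT BMDMs at 6 h was thus no larger in these members than the median of the other genes of their level. After a smooth curve of this relation was subtracted from each library, the changes of B2m, H2-K1 and H2-D1 at 6 h were 0.31, 0.25 and 0.20 in WT BMDMs and -0.08, -0.09 and -0.08 in Arntl-/- BMDMs. At 48 h they were 0.11, -0.10 and 0.08 in WT BMDMs and -0.13, -0.11 and -0.04 in Arntl-/- BMDMs, so that their difference from 0 h at 48 h did not hold under the correction. The 3 genes lie near the upper end of the fitted curve, and how far their corrected signs depend on the fit there was not tested. Tapbp kept 0.96 and 0.81 at 48 h, H2-T23 0.86 and 0.72, and Tap2 0.70 and 0.58. Depth, library preparation and the cells themselves cannot be told apart as sources of the relation with 1 library per condition, and the correction also removes any true change that genes of one level share.

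**Figure D4:**
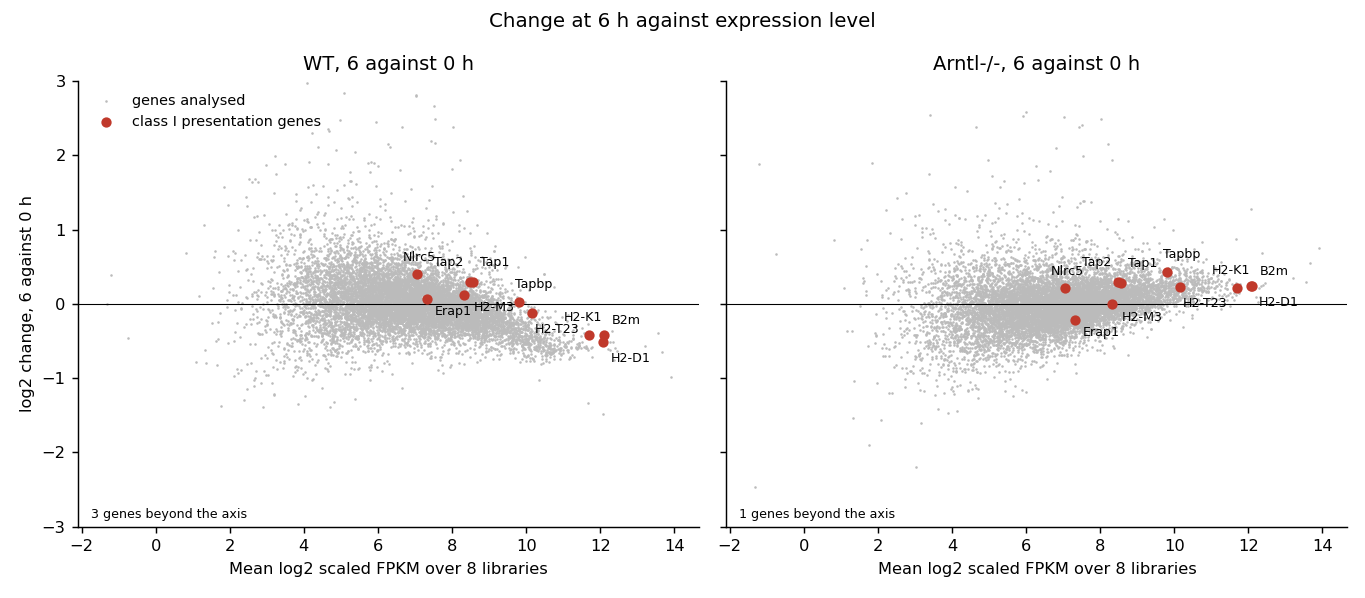
Log2 change at 6 against 0 h of each gene analysed (grey) against its mean log2 scaled FPKM over the 8 libraries, in WT and Arntl-/- BMDMs, with the 10 genes in red. The cloud bends down at high expression in WT BMDMs and slightly up in Arntl-/- BMDMs, and B2m, H2-D1 and H2-K1 (-0.52 to -0.42 in WT, 0.21 to 0.24 in Arntl-/-) lie within it.

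Ratios between members in the same library are not touched by scaling. H2-D1 was 0.995 to 1.07 times B2m in WT BMDMs and 0.899 to 0.999 times B2m in Arntl-/- BMDMs. H2-K1 was 0.660 to 0.807 times B2m in WT BMDMs, lowest at 48 h, and 0.721 to 0.758 times B2m in Arntl-/- BMDMs. Tapbp was 1.66 (6 h) to 3.67 (48 h) times Tap1 in WT BMDMs, with 2.01 at 0 h, and 1.80 (0 h) to 3.25 (48 h) times Tap1 in Arntl-/- BMDMs. Without the correction for level, the light and classical heavy chain transcripts thus varied less in proportion to each other than tapasin and Tap1 did. Tapbp and Tap1 differ more in level than the other pairs do. With the correction, the changes of Tapbp and Tap1 at 48 h were 0.96 and 0.27 in WT BMDMs and 0.81 and 0.24 in Arntl-/- BMDMs.

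The likeness of the members' values over the 8 libraries is given as a description, since the libraries share time courses and depth. Pearson's r of each member with the mean standardized profile of the other 9, so that no member was compared with itself, was 0.97 for Tap2 and Tapbp, 0.91 for H2-T23, 0.83 for B2m, 0.77 for H2-K1, 0.75 for H2-D1 and 0.70 for Tap1. It was 0.30 for Nlrc5, -0.64 for H2-M3 and -0.80 for Erap1, all without the correction for level. After the correction, r of H2-M3 and of Erap1 was positive with each of B2m, H2-K1 and H2-D1 (0.20 to 0.74). With H2-T23, Tapbp, Tap1 and Tap2 it stayed negative (-0.71 to -0.10). Tapbp and H2-T23 had an r of 0.98 with each other (0.97 after the correction for level) and Tapbp and Tap2 one of 0.95 (0.98). B2m and H2-T23 had an r of 0.97, and -0.05 after the correction, and H2-K1 and H2-T23 one of 0.94, and -0.41 after it. Of the other genes analysed, the 10 whose values were most like the mean profile of the 10 were St3gal2 (r = 0.997), Rab6a (0.987), Bcat2, Ndufa11, Pdpn, Arrdc4, Arih1, Slfn5, P4ha1 and Mib2. Slfn5, a known interferon-stimulated gene, had the largest change of these at 48 h, a log2 of 1.84 in WT BMDMs and 1.86 in Arntl-/- BMDMs.

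The wider pathway was read from 7 lists with 88 genes analysed. Their counts at 48 h stand against 13.5% of all genes in WT BMDMs and 15.2% in Arntl-/- BMDMs. Of 18 other class I heavy chain and class I-like genes analysed, of 25 listed, 9 were at least 1.5-fold higher at 48 h in WT BMDMs and 10 in Arntl-/- BMDMs, and 8 in each genotype with the correction for expression level. H2-M2 had the largest change of the list from 0 to 24 h in WT BMDMs, with 17.0, 61.7, 112 and 156 over time in WT BMDMs and 11.8, 71.1, 136 and 127 in Arntl-/- BMDMs. H2-T24 was at 49.0, 148, 181 and 428 in WT BMDMs and at 74.7, 192, 287 and 407 in Arntl-/- BMDMs, and was the only class I gene of the lists past 1.5-fold between genotypes in the same direction at 2 times (0.61 at 0 h and 0.67 at 24 h). Fcgrt, the neonatal Fc receptor, had the lowest change at 24 h in WT BMDMs (0.07). Several of these rows share positions with each other (H2-Q6 with H2-Q8, H2-Q7 with H2-Q9, H2-T9 with H2-T22), so their values are not independent.

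Genes that act before and around peptide loading were counted at 48 h without and with the correction for expression level. Of 10 loading and chaperone genes, 3 were at least 1.5-fold higher at 48 h in WT BMDMs and 2 in Arntl-/- BMDMs, and 0 and 0 with the correction. The chaperone gene Hspa5 was at 1091, 923, 1367 and 1920 in WT BMDMs and at 942, 1230, 1232 and 1597 in Arntl-/- BMDMs, and Sec61b, of the translocon, had the lowest change of the list at 24 h in WT BMDMs (-0.35). Of 15 proteasome and peptidase genes, 2 were higher in WT BMDMs, a share near the 13.5% of all genes, and 5 in Arntl-/- BMDMs, where 15.2% of all genes were. With the correction these counts were 1 and 3. The peptidase gene Npepps went from 231 to 507 in WT BMDMs and from 240 to 559 in Arntl-/- BMDMs, while Blmh was lowest at 24 h in WT BMDMs (-0.54). Psmb8, the immunoproteasome subunit LMP7, was at 829, 640.0, 885 and 1106 in WT BMDMs.

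Regulators of the pathway and interferon receptors were read in the same way. Of 17 regulators analysed, 4 were at least 1.5-fold higher at 6 h in WT BMDMs, against 5.39% of all genes, and 3 in Arntl-/- BMDMs, against 3.1%. At 48 h they were 5, against 13.5%, and 3, near the 15.2% of all genes, with the same counts after the correction. Irf7, an interferon regulatory factor, was at 237, 406, 735 and 1172 in WT BMDMs and at 282, 499, 790 and 1189 in Arntl-/- BMDMs. Nfyb, a subunit of the factor that binds the Y box, was lowest of the list at 24 h in WT BMDMs (-0.37). Ciita, the class II transactivator, was at 2.0 or less in every library. Of 7 interferon receptor and kinase genes analysed, 0 were higher at 48 h in WT BMDMs and 2 in Arntl-/- BMDMs, and 0 and 1 with the correction. Jak2 had the largest change of that list at 24 h (0.79 in WT BMDMs) and Jak1 the lowest (-0.03), and Ifnb1 and Ifng were at 4 reads or fewer in every library.

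The type I interferon-stimulated genes, none of them a member, had the largest shares of the 7 lists at 48 h, with or without the correction. Of 16, 15 were at least 1.5-fold higher at 6 h in WT BMDMs and 14 in Arntl-/- BMDMs, against 5.39% and 3.1% of all genes, and 16 and 15 at 48 h, the latter counts also with the correction. Ifit1 went from 24.0 at 0 h to 170 at 6 h and 335 at 48 h in WT BMDMs and from 24.4 to 228 and 335 in Arntl-/- BMDMs. Between genotypes, 5 of the 16 were past 1.5-fold higher in Arntl-/- at 0 h (Mx1, Mx2, Oas2, Oasl2 and Usp18), 0 at 6 h, 5 at 24 h (Ifit1, Ifit2, Ifit3, Mx1 and Mx2), and 2 were past it lower at 48 h (Oasl1 and Cxcl10). Of all genes, 3.22%, 2.03% and 3.62% were past it higher at 0, 6 and 24 h, and 5.91% lower at 48 h. Mx1 and Mx2 were past it at both 0 and 24 h (0.67 and 0.73 for Mx1, 1.16 and 0.88 for Mx2). Their lowest counts in a library were 211 reads for Mx1 and only 35 for Mx2, and no counting interval was computed for them. Ifih1 had the lowest change of the list from 0 to 24 h in WT BMDMs (0.40). Of 5 class II presentation genes analysed, of 11 listed, 2 were higher at 48 h in WT BMDMs and 4 in Arntl-/- BMDMs. These 2 counts were the same with the correction. Cd74, the invariant chain, had the largest change of that list at 24 h in WT BMDMs (0.89), and H2-DMb1 the lowest (-0.06).

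**Figure D5:**
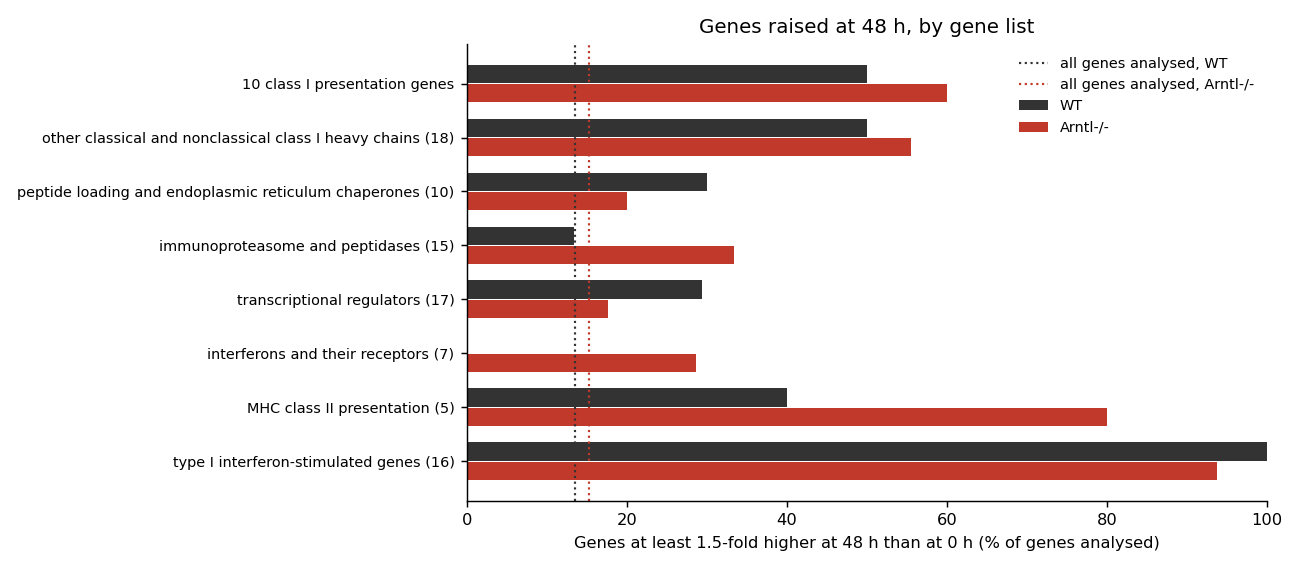
Share of the genes analysed in each list (numbers in parentheses) that were at least 1.5-fold higher at 48 h than at 0 h, without the correction for expression level, in WT (black) and Arntl-/- (red) BMDMs, with all genes analysed as dotted lines at 13.5% and 15.2%. The 10 class I presentation genes and the other class I heavy chains lie at 50 to 60%, below the interferon-stimulated genes and above the other lists in WT BMDMs, where class II is at 40%. In Arntl-/- BMDMs class II lies above them, with 4 of 5 genes past the line.

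The cells carried macrophage markers throughout. The macrophage list (8 genes, among them Csf1r, Emr1, Cd68 and Lyz2) had a summed scaled FPKM of 15088 to 37621 in the WT and 16992 to 33590 in the Arntl-/- libraries. The list moved with the most abundant class I genes: 6 of 8 were at least 1.5-fold higher at 48 h in both genotypes, against the same 13.5% and 15.2% of all genes (medians 0.72 in WT and 0.90 in Arntl-/-), and the medians at 6 h were -0.42 and 0.22. With the correction for expression level, 2 of 8 in WT and 1 of 8 in Arntl-/- BMDMs were past the line at 48 h. The 6 dendritic cell markers summed to at most 11.4 in any library with Cd209a at 0 in all, and the 3 B cell markers to at most 14.3. The 6 T and NK cell markers summed to 2.1 to 14.8 in WT and 1.3 to 4.3 in Arntl-/- libraries, with Cd3e and Cd3g at 0. The only one of them analysed, Cd4, changed by 2.74 at 48 h in WT BMDMs and by -0.15 in Arntl-/- BMDMs, at these low levels. The neutrophil list (6 genes found) summed to 509 to 928 in WT and 834 to 1014 in Arntl-/- libraries, with Mpo at 0. Of this list S100a9 was at 148 to 207 in WT BMDMs and at 371 to 428 in Arntl-/- BMDMs up to 24 h, and at 48 h it was down to 10.11 in WT and 9.0 in Arntl-/-. S100a8, the other gene of the list that was analysed, went the other way, from 308 at 0 h to 910.3 at 48 h in WT BMDMs and from 401 to 905 in Arntl-/- BMDMs. The 5 stromal markers summed to 384 to 1069 in WT and 298 to 653 in Arntl-/- libraries. Of these, 4 of the 4 analysed were at least 1.5-fold higher at 48 h in both genotypes (medians 1.47 and 1.12), against 13.5% and 15.2% of all genes. Between genotypes at 48 h, 3 of the 4 were at least 1.5-fold lower in Arntl-/- BMDMs (median -0.78), against 5.91% of all genes. Col1a1 among them went from 166 at 0 h to 525 at 48 h in WT BMDMs and from 126 to 289 in Arntl-/- BMDMs. The parts of these cells in the values of the class I genes, which nearly all cells express, were not tested.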

How the data were processed

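PolyA RNA was sequenced in paired ends on a HiSeq instrument in 8 libraries of BMDMs, 1 for each genotype and time, so no condition was replicated. The 4 times were not taken as replicates of a genotype, and no fit of genotype with time as a block was made. The authors aligned the reads to mm9 with STAR and used HOMER to count both strands over the exons of RefSeq genes. Per the file headers they set a limit of 3 tags per position, kept 1 transcript per gene and scaled each library to 10000000 reads. Tool versions were not given in the sources used here. The deposited values are FPKM per 10000000 reads, so 10 times the usual scale of FPKM. Of the value columns, 4 match no sample described here and were not used, and 1 broken line was dropped.

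Size factors by median of ratios over the 8 libraries divided the FPKM (0.918 in WT at 48 h to 1.13 in WT at 6 h). Log2 values were computed with a pseudocount of 0.1 on the scaled FPKM, and changes were counted past 1.5-fold. For genes with under 6 kb of exon, 100% of values under 20 reads in 7 libraries and 99.85% in the other, once multiplied by exon length, were whole numbers of reads within the rounding of the table. This gave the reads behind each value, which were used for depth and for exact (Clopper-Pearson) 95% intervals and for no test. Because low counts piled up at 6 reads, intervals took 6 reads as 1 molecule, a choice made after seeing the values. They cover counting error only.

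The genes analysed had at least 100 scaled reads in at least 1 WT library. The correction for expression level fitted each library's deviation from the gene means on mean log2 level with lowess (fraction 0.3) and subtracted the fit. The members and gene lists were chosen with earlier results of these data known. Named genes were the 10 members, Arntl, genes of the 7 pathway lists past 1.5-fold between genotypes at 2 or more times in the same direction, the largest and smallest change of each list from 0 to 24 h in WT BMDMs, and the 10 genes most like the members' mean profile. Psmb8, Ciita, Oas2, Oasl1, Oasl2, Ifit2, Ifit3, Usp18, Cxcl10, Ifnb1, Ifng, rows that overlap or share positions, and the marker genes were named outside this rule after their values were seen. Promoters were matched by symbol, with the first listed window of each gene. Shared windows and coding identity came from the GENCODE annotation of mm9, in which Nlrc5 had no entry under that symbol. Alternatives were no scaling beyond that of the authors, upper-quartile scaling, pseudocounts of 1 and 0.01, the correction for expression level, a 2-fold line and other filters on low values. The steps were tested on simulated data. The work was done in Python 3.11.15 with scipy 1.17.1, pandas 2.3.3, statsmodels 0.14.6, numpy 2.4.6 and, for plots, matplotlib 3.10.9.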

Additional observations from a re-analysis of the deposited data

Results flagged for a closer look

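At 6 against 0 h, 3 genes moved in opposite directions in the genotypes, each with 1 library per condition. B2m had a log2 change of -0.42 in WT BMDMs and 0.24 in Arntl-/- BMDMs, H2-K1 of -0.42 and 0.21, and H2-D1 of -0.52 and 0.24. The differences between these changes were 0.66 (0.51 to 0.80), 0.63 (0.51 to 0.75) and 0.75 (0.65 to 0.86), with counting intervals only. The difference was not tested against replicates, since there were none. Without the correction for expression level, the 51 other genes of their level had medians of -0.57 in WT and 0.22 in Arntl-/- BMDMs. After the correction the changes of the 3 genes had the opposite signs, 0.31, 0.25 and 0.20 in WT BMDMs and -0.08, -0.09 and -0.08 in Arntl-/- BMDMs. The 3 genes lie near the upper end of the fitted curve. How far the turned signs depend on the fit there was not tested. H2-T23 and Tapbp differed in the same sense without the correction, by 0.34 (0.10 to 0.59) and 0.40 (0.21 to 0.59).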

How the results depend on the processing

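The counts of members between genotypes (either direction) and of members higher than at 0 h were the same with upper-quartile scaling and with pseudocounts of 1 and 0.01. With the values as deposited the count at 48 h in Arntl-/- BMDMs was 5 in place of 6, and the others did not change. That setting moves the median of all genes most at 48 against 0 h in Arntl-/- BMDMs, from -0.01 to -0.18. The 1 member past the line downwards, Erap1 at 48 h in Arntl-/- BMDMs, was not past it with upper-quartile scaling (-0.55) or the correction for expression level (-0.57). The counts between genotypes were 0 at all 4 times under every setting run. With the correction for expression level the counts of genes higher were 0 in WT and 0 in Arntl-/- BMDMs at 24 h, and 3 and 2 at 48 h. With a 2-fold line they were 0 and 0 at 24 h (2.94% and 2.38% of all genes), and 2 and 2 at 48 h (5.42% and 5.85%). The log2 change at 48 h in Arntl-/- BMDMs was reversed by the correction for B2m (-0.13), H2-K1 (-0.11) and H2-D1 (-0.036). Of 110 values for single members and medians, 35 changed sign under the correction, 9 as deposited, 2 with upper-quartile scaling and 0 with either pseudocount. The share of all genes past 1.5-fold between genotypes at 48 h was 27.4% among genes with an FPKM of at least 1 in any library and 20.2% with no filter, in place of 11.7%. The planned correction for the limit on tags per position was not run: both strands with 3 tags allow 6 reads per base, and B2m, H2-D1 and H2-K1 had up to 14.6, 14.6 and 11.8 in WT BMDMs at 6 h. Leaving out a replicate could not be done with 1 library per condition. A fit of genotype over the 8 libraries with time as a block was not made, since the times were not taken as replicates. The libraries of 8587560 and 9191164 reads at 48 h limit H2-M3 and Erap1 most, with log2 ratios between genotypes of -0.53 to 0.38 and of -0.82 to -0.04 in their intervals.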
